A study of Mus musculus with 8 samples.

Results

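Secreted antagonists of Wnt signaling were examined in E15.5 hippocampi of intrauterine growth-restricted (IUGR) and sham mouse offspring. The genes are *Dkk1*, *Dkk2*, *Dkk3*, *Wif1*, *Sfrp1*, *Sfrp2* and *Frzb*. They were taken by name from a table of 16397 genes, and all 7 were in it. The IUGR group comprised 4 hippocampal samples (T1-1, T1-3, T1-4 and T1-5). Their C57Bl/6J dams received a micro-osmotic pump at E12.5 that delivered U-46619, a thromboxane A2 analog that raises maternal blood pressure. The sham group comprised 4 samples (S1-4, S1-6, S3-1 and S3-4) from dams of the same strain, operated at the same gestational age, whose pumps held the ethanol vehicle alone. Both groups therefore shared maternal surgery and vehicle, and the comparison asks which transcripts differed with the hypertensive pregnancy. Hippocampi of both sexes were used according to the study's methods, but the labels do not give the sex of each sample.

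Wnt proteins are secreted lipid-modified ligands that bind a Frizzled receptor together with the coreceptor LRP5 or LRP6, and in the canonical pathway this stabilizes β-catenin, which acts with TCF and LEF factors on target genes. Secreted antagonists act outside the cell by different routes. Dkk1 and Dkk2 bind LRP5 and LRP6, whereas Wif1 and the Sfrp proteins, including Frzb (also called Sfrp3), bind the Wnt ligands themselves. Dkk3 is the divergent member of the Dkk family and has no settled role at LRP6. In the embryonic brain, the hippocampus forms beside the cortical hem, a Wnt- and Bmp-producing strip of the medial telencephalic wall that adjoins the choroid plexus, and Wnt signaling there is required for hippocampal growth.

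The deposited values are raw read counts per gene from ribosomal RNA-depleted total RNA. Total counts were between 12919546 and 16672463 in IUGR samples and between 11212632 and 15405748 in sham samples, so the depths of the groups overlapped. Expression is given below as CPM, the gene's count scaled to a common library size by the TMM method of edgeR, and 13707 protein-coding genes with sufficient counts were tested together with edgeR. To be called, a gene needed a Benjamini-Hochberg adjusted p no higher than 0.05 and a log2 fold change of 1 or more in size. The hippocampal regulators Zbtb20, Prox1, Emx2 and Lhx2 were detected in all 8 samples. All IUGR names carry the prefix T1 and the sham names carry S1 or S3. The meaning of the prefix is not given in the sources used here, so prefix and condition cannot be told apart. The labels do not say whether the samples of a group came from separate litters, and p values measure only the spread between these samples. In bulk tissue, fewer cells of a type and less RNA per cell cannot be told apart.

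The results turn on *Dkk1* and *Wif1*, and RefSeq promoter windows of GRCm38.p6 (250 bases before to 50 bases after the RefSeq start) were read for them. Windows were found for 5 members, namely *Dkk1*, *Dkk2*, *Wif1*, *Sfrp2* and *Frzb*. *Dkk1* lies on chromosome 19 (30545863 to 30549665, minus strand, GRCm38, GENCODE M21). The stretch just before its GENCODE start is shown with CG dinucleotides in capitals, so that the promoters of both called members can be set side by side.
Dkk1 chr19:30549666-30549746 (minus strand): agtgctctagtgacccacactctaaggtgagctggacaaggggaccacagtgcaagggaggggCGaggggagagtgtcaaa
*Wif1* lies on chromosome 10 (121033960 to 121100650, plus strand). The stretch before its GENCODE start was richer in CG. It is 206 bases long against 81 for *Dkk1*, and it lies at another distance from the RefSeq start.
Wif1 chr10:121033754-121033959 (plus strand): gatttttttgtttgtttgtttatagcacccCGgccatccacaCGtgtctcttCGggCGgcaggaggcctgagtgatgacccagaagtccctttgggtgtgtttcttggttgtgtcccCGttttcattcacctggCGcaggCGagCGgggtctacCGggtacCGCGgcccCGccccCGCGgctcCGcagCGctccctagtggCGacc
Over the whole 300-base windows, *Wif1* held 25 CG dinucleotides, *Sfrp2* 22, *Frzb* 20, *Dkk2* 11 and *Dkk1* 9, beside a median of 7 over 32851 windows. GC content was 63.0% for *Wif1*, 60.7% for *Dkk1*, 57.7% for *Dkk2*, 66.0% for *Sfrp2* and 64.7% for *Frzb*, beside a median of 52.7%.

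A TCF/LEF core, searched on both strands as the word CTTTG followed by any pair of the letters A and T, with overlaps counted, was present in the window of 1 of these 5 members. *Dkk1* held 2 matches, which begin 117 and 98 bases before the RefSeq start and lie inside the 5′ UTR of the longer GENCODE model. They are shown with the matches in capitals.
Dkk1 chr19:30549586-30549615 (minus strand): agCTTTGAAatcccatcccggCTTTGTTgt
Of all windows, 16.9% held at least 1 such match and 1.94% held at least 2. These matches describe letters and not binding, and the 4 windows without a match lack only these letters.

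Of the 7 members, *Dkk1* and *Wif1* were called, both lower in IUGR hippocampi, and none was called higher by edgeR, DESeq2 or limma-voom. At an unadjusted p under 0.05, edgeR gave 3 lower (*Dkk1*, *Wif1* and *Dkk3*) and 0 higher, beside 6.62% of all tested genes that were lower at this threshold. Over all tested genes, 1.46% were called in either direction and 1.36% were called lower. The members' count is 2 of 7, and all 7 passed the count filter. *Dkk1*, with a mean count of 11.6, passed it through its sham reads (16 to 28 per sample, against 1 to 3 in IUGR). In the edgeR fit without a count filter its log2 fold change was −3.08 (adjusted p = 0.0105). The 3 lower members were also the 3 in which every IUGR sample was below every sham sample, a separation in that direction seen in 5.06% of tested genes (7.14% in either direction). *Dkk2*, *Sfrp1*, *Sfrp2* and *Frzb* overlapped between the groups.

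**Figure D1:**
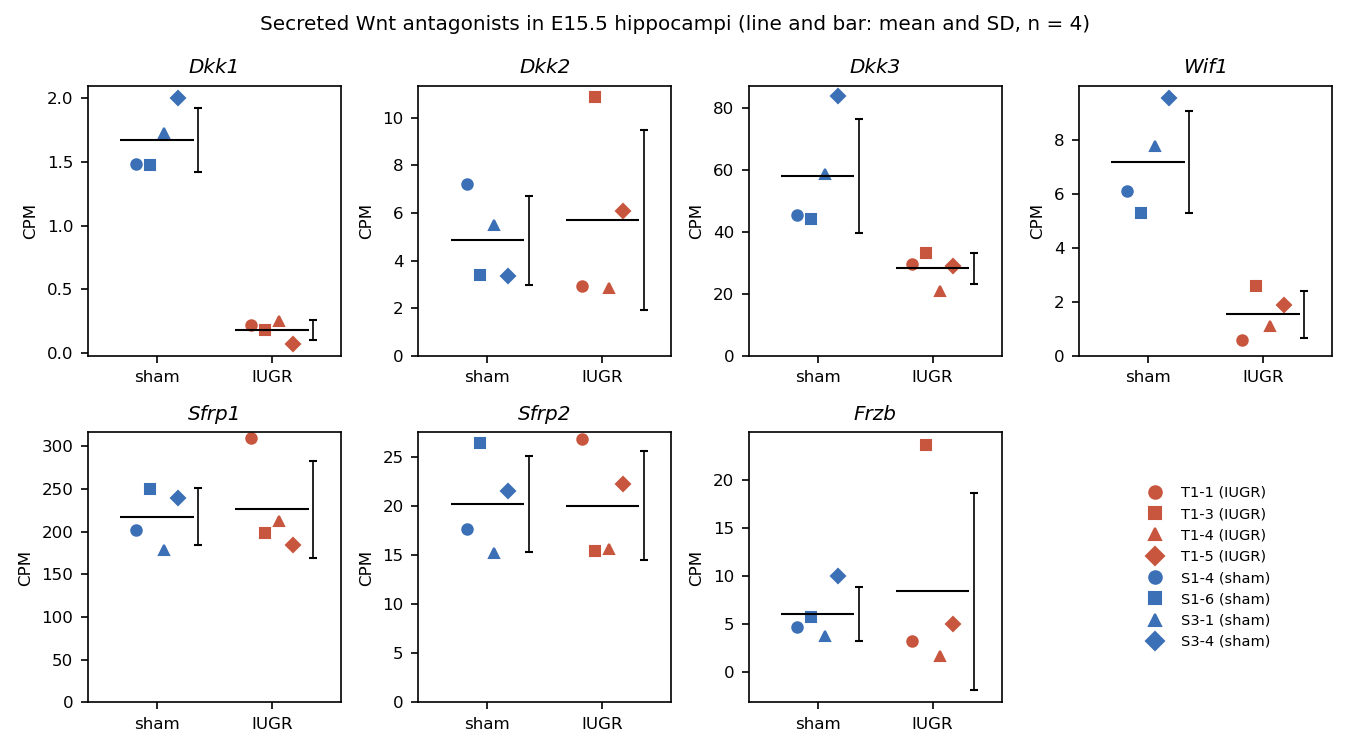
CPM of each member in each sample, with sham in blue and IUGR in red; the horizontal line is the group mean and the bar 1 SD (n = 4). The groups are apart for *Dkk1*, *Dkk3* and *Wif1* and overlap for the other 4 genes, and T1-3 stands alone in *Frzb* at 23.7 CPM.

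*Dkk1*, the founding Dkk antagonist of LRP6, had the largest fall of the 7 members. Its level was 0.22 (T1-1), 0.18 (T1-3), 0.25 (T1-4) and 0.08 CPM (T1-5) in IUGR and 1.48 (S1-4), 1.47 (S1-6), 1.73 (S3-1) and 1.996 CPM (S3-4) in sham hippocampi. All 4 IUGR samples were far below the lowest sham sample. The means were 0.185 ± 0.0776 and 1.67 ± 0.248 CPM (SD, n = 4 each), and their ratio was 9.04. By the quasi-likelihood test of edgeR the log2 fold change was −3.12 ± 0.42 (standard error), a fitted fold of 8.71, with an adjusted p of 0.00998. Only 66 of the 13707 tested genes had a lower log2 fold change.

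*Dkk1* is a sparsely counted gene. The IUGR values rest on 3, 3, 3 and 1 reads, 10 in all, and the sham values on 16, 17, 22 and 28 reads, 83 in all. At the depths of the groups the ratio of sham to IUGR reads was 9.23, with a 95% interval of 4.77 to 19.9 that covers counting error only. The spread between samples adds to this interval. The direction was the same with every sample left out in turn. The exact two-sided permutation test on log2 CPM gave p = 0.0286, the smallest value that 4 against 4 samples can give.

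*Wif1*, which encodes a secreted Wnt-binding protein with a WIF domain, was the other called member. Expression was 0.60 (T1-1), 2.58 (T1-3), 1.10 (T1-4) and 1.90 CPM (T1-5) in IUGR and 6.10 (S1-4), 5.28 (S1-6), 7.77 (S3-1) and 9.55 CPM (S3-4) in sham hippocampi. The highest IUGR sample was T1-3, and it remained below the lowest sham sample, S1-6. The means were 1.54 ± 0.875 and 7.17 ± 1.89 CPM (SD, n = 4 each), and their ratio was 4.65. In edgeR the log2 fold change was −2.20 ± 0.41 (standard error), a fitted fold of 4.58, with an adjusted p of 0.0301. The reads behind it were 88 in IUGR and 360 in sham samples, a depth-adjusted ratio of 4.55 (95% counting interval, 3.59 to 5.81). The exact permutation p was 0.0286. The *Wif1* call was less firm than that of *Dkk1*, since with a sample left out it passed the threshold in 2 of 8 fits (adjusted p from 0.0212 to 0.0987 in edgeR), against 8 of 8 for *Dkk1* (0.0109 to 0.0412).

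*Dkk3* lies on chromosome 7 (112116017 to 112159057, minus strand). It was measured at 29.6 (T1-1), 33.3 (T1-3), 21.1 (T1-4) and 28.97 CPM (T1-5) in IUGR and at 45.4 (S1-4), 44.3 (S1-6), 58.8 (S3-1) and 84.0 CPM (S3-4) in sham hippocampi. The groups did not overlap, and S3-4 lay well above the other sham samples. The means were 28.2 ± 5.13 and 58.1 ± 18.5 CPM (SD, n = 4 each), and the log2 fold change was −1.04 (95% interval −1.49 to −0.60). This and the later 95% intervals of log2 fold changes are normal approximations from the standard error, narrower than the quasi-likelihood test implies. *Dkk3* narrowly missed the threshold, with an adjusted p of 0.0534 from edgeR. It passed with DESeq2's Wald test (adjusted p = 0.00148) and with limma-voom (adjusted p = 0.0461). The exact permutation p was 0.0286. Without S3-4 the log2 fold change was −0.81.

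The remaining Dkk gene, *Dkk2* (chromosome 3, 132085292 to 132180304, plus strand), encodes an LRP6 ligand that can antagonize or weakly activate the pathway depending on its partners. Its level was 2.92, 10.9, 2.87 and 6.08 CPM in T1-1, T1-3, T1-4 and T1-5, and 7.21, 3.38, 5.49 and 3.35 CPM in S1-4, S1-6, S3-1 and S3-4. The highest and the 2 lowest samples were all IUGR, so the sham range lay within the IUGR range. The log2 fold change was 0.24 (95% interval −0.65 to 1.13, adjusted p = 1.00 in edgeR), and it was −0.26 without T1-3.

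*Sfrp1* (chromosome 8, 23411502 to 23449632, plus strand), a Wnt-binding protein with a Frizzled-like cysteine-rich domain, was the most abundant member. It was measured at 309, 198, 212 and 184 CPM in T1-1, T1-3, T1-4 and T1-5, and at 201, 250, 179 and 240 CPM in S1-4, S1-6, S3-1 and S3-4. T1-1 was the highest of the 8 and the other IUGR samples lay within the sham range. The log2 fold change was 0.06, with a 95% interval of −0.30 to 0.41 that leaves out a fold of the size seen in *Dkk3*. It changed sign, to −0.10, without T1-1.

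Its paralog *Sfrp2* (chromosome 3, 83766321 to 83774316, plus strand) was similarly spread in both groups. Values were 26.9, 15.4, 15.7 and 22.3 CPM in T1-1, T1-3, T1-4 and T1-5, and 17.7, 26.4, 15.2 and 21.6 CPM in S1-4, S1-6, S3-1 and S3-4. The ranges were almost the same, and the log2 fold change of −0.01 (95% interval −0.48 to 0.46) turned to 0.01 with DESeq2 size factors or upper-quartile scaling.

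*Frzb* (chromosome 2, 80411970 to 80447625, minus strand) was the most variable member. It was at 3.22, 23.7, 1.601 and 4.94 CPM in T1-1, T1-3, T1-4 and T1-5, and at 4.62, 5.71, 3.69 and 9.98 CPM in S1-4, S1-6, S3-1 and S3-4. T1-3 was the highest and T1-4 the lowest of all samples. The log2 fold change was 0.49 (95% interval −0.90 to 1.87, adjusted p = 1.00 in edgeR), and −0.86 without T1-3. The direction for *Frzb* thus rested on 1 sample.

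**Figure D2:**
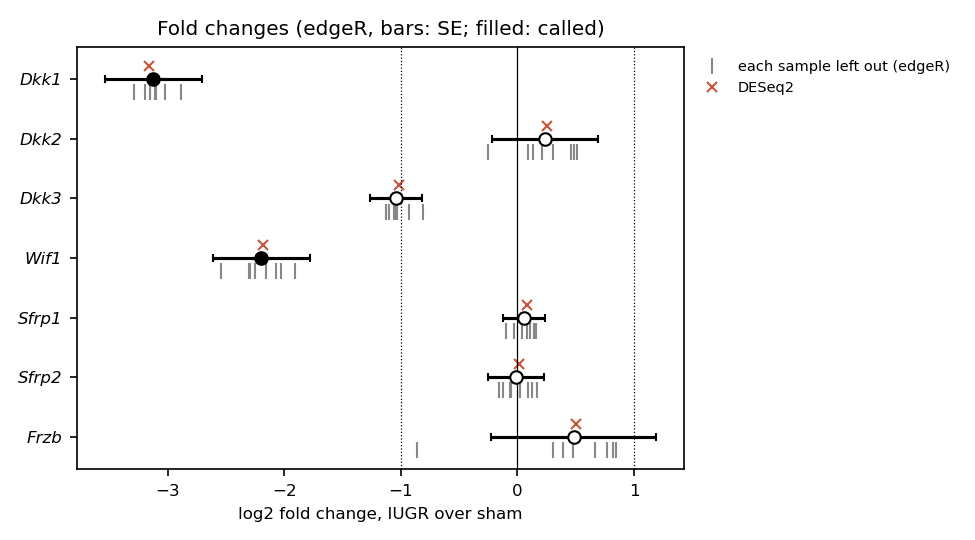
Log2 fold change of each member (IUGR over sham) with its standard error from edgeR; filled points were called, grey ticks give the fit with each of the 8 samples left out and crosses the DESeq2 value. Ticks for *Dkk1*, *Wif1* and *Dkk3* stay on the lower side, while those for *Dkk2*, *Sfrp1*, *Sfrp2* and *Frzb* fall on both sides of 0.

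The sham samples themselves differed by prefix for the lower genes. For *Dkk1*, *Wif1* and *Dkk3*, both S3 samples were above both S1 samples, which was the case for 3 of the 7 members (42.9%) and for 18.6% of all tested genes. Against the S1 samples alone, the log2 fold change was −2.94 for *Dkk1*, −1.86 for *Wif1* and −0.67 for *Dkk3*, and none was called by edgeR (adjusted p 0.134, 0.312 and 0.370). Against the S3 samples alone it was −3.25, −2.45 and −1.32 (adjusted p 0.0876, 0.121 and 0.0876 in edgeR). In these smaller fits edgeR called 0 and 2 genes in all, with 1053 and 1338 at an unadjusted p under 0.05. All 3 members kept the lower direction and an unadjusted p under 0.05 against either prefix.

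Levels of different members were compared per kilobase of annotated exon (CPM per kb). In sham hippocampi *Sfrp1* was highest at 49.7 ± 7.61 CPM per kb (SD, n = 4), followed by *Dkk3* at 17.3 ± 5.49, *Sfrp2* at 9.39 ± 2.27, *Wif1* at 2.96 ± 0.780, *Frzb* at 1.85 ± 0.859, *Dkk2* at 1.31 ± 0.503 and *Dkk1* at 0.687 ± 0.102. The ranges of *Wif1* and *Frzb* overlapped, as did those of *Frzb* and *Dkk2*, and the other neighbors in this order were separate. Of the summed level, *Sfrp1* made up 59.8% and *Dkk1* 0.833% on average.

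In IUGR hippocampi the order was different below *Sfrp1*, which stood at 51.7 ± 12.9 CPM per kb. *Sfrp2* (9.32 ± 2.58) and *Dkk3* (8.40 ± 1.53) overlapped, then came *Frzb* (2.58 ± 3.18), *Dkk2* (1.54 ± 1.02), *Wif1* (0.636 ± 0.361) and *Dkk1* (0.0760 ± 0.0320). *Wif1*, the fourth member in sham hippocampi, was the sixth in IUGR, and its range overlapped those of *Dkk2* and *Frzb*. The place of *Frzb* above *Dkk2* rested on T1-3, without which they stood at 1.01 ± 0.516 and 1.07 ± 0.497 CPM per kb (n = 3). *Dkk1* was lowest in both groups, and below every other member in each. The length of the longest transcript in place of all exons gave the same order.

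The summed level of the antagonist transcripts, in which *Sfrp1* outweighs the others, overlapped between the groups. It was 94.1, 73.8, 63.9 and 65.1 CPM per kb in T1-1, T1-3, T1-4 and T1-5, and 74.3, 88.1, 71.9 and 98.6 CPM per kb in S1-4, S1-6, S3-1 and S3-4. The lowest sum was that of T1-4 and the highest that of S3-4. The share of *Sfrp1* in the sum was 61.4% to 75.9% in IUGR and 55.6% to 64.9% in sham samples, and that of *Dkk3* was 9.36% to 13.4% and 14.98% to 25.4%. Without *Sfrp1* the sum was 15.4 to 28.5 CPM per kb in IUGR and 28.2 to 43.8 in sham samples.

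**Figure D3:**
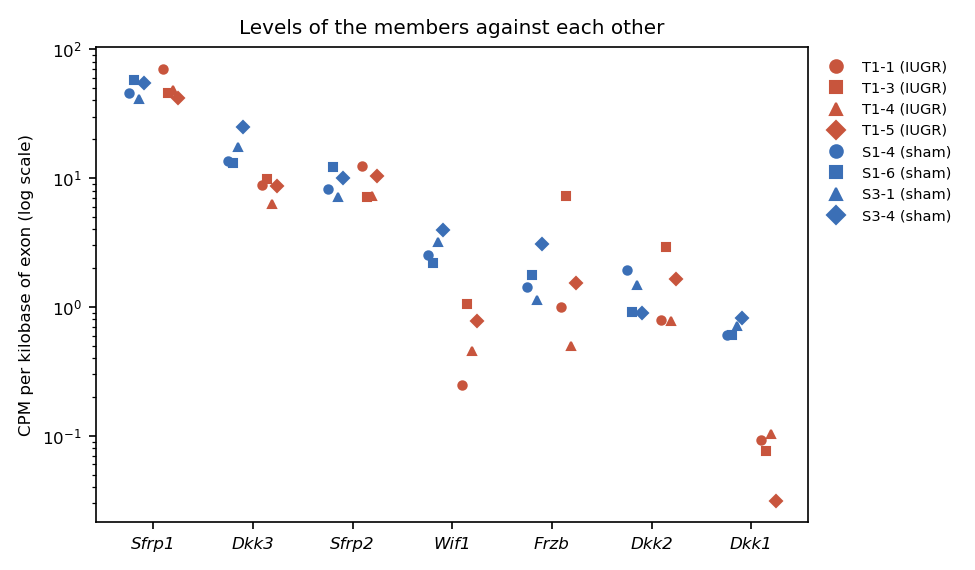
Level of each member in CPM per kilobase of exon on a log axis, 1 point a sample, in the order of the sham means. *Sfrp1* lies above all others in both groups, and *Wif1* moves from the fourth place in sham to the sixth in IUGR.

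Members were next related to one another across the 8 samples after each group's mean log2 CPM was removed, so that the group difference itself did not enter. None of the 21 pairs passed a Benjamini-Hochberg threshold of 0.05, and 1 pair had an exact permutation p under 0.05 for Pearson's r. That pair was *Sfrp1* and *Sfrp2* (r = 0.749, exact permutation p = 0.049, adjusted p = 0.5; rho = 0.738, exact p = 0.075, adjusted p = 0.496). Without T1-1 and S1-6, the samples farthest from the median of *Sfrp1*, r was 0.303, so the relation rests on those samples.

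*Wif1* and *Frzb* had r = 0.703 (exact permutation p = 0.167; rho = 0.690, exact p = 0.135), which was 0.406 without T1-3. *Dkk2* and *Frzb* had r = 0.634, which fell to 0.033 without T1-3, the sample in which both genes were highest. *Dkk3* and *Frzb* had r = 0.625 (exact permutation p = 0.0625; rho = 0.524, exact p = 0.231), and r was 0.229 without T1-4 and S3-4. Of the 21 correlations, 10 were negative, the largest in size being those of *Sfrp1* with *Wif1* (r = −0.701, exact permutation p = 0.101) and with *Dkk2* (r = −0.675, exact permutation p = 0.113). Within-group correlations of *Dkk1* cannot be read at 1 to 3 reads per IUGR sample. With 8 samples, the values of the members thus followed one another within groups in no pair that holds after adjustment.

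The genes whose log2 CPM over the 8 samples was most like that of each member are given as a description, since these correlations also carry the group difference. Only genes whose mean count reached 50 were considered. Nearest to *Dkk1* were Vcam1 (r = 0.974), an adhesion molecule, and Adam17 (0.965), a shedding protease. *Wif1* was followed by 1700084C01Rik (r = 0.987), Pygl (0.979), a glycogen phosphorylase, and Tmem243 (0.979), and within groups these had 0.938, 0.888 and 0.935. Nearest to *Dkk3* were Eya4 (0.963), a transcriptional coactivator, Sh3bgrl2 (0.956) and Ccdc80 (0.948).

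The members whose groups overlapped had neighbors with group-centred values as high as the pooled ones. *Dkk2* was most like Clec14a (r = 0.985), an endothelial membrane protein, Met (0.970), the receptor for hepatocyte growth factor, and Cdh11 (0.964), a cadherin. *Frzb* was most like Gja1 (0.962), which encodes connexin 43, Vcl (0.962), which encodes vinculin, and Plekhg1 (0.955). *Sfrp1* was most like Fam168b (0.982), Plekhh1 (0.966) and Adar (0.962), and *Sfrp2* most like Zfp275 (0.931), Gid4 (0.921) and Plxna4 (0.918).

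Marker lists of cell types that a dissected hippocampus could hold moved with several members. All 17 tested markers of choroid plexus epithelium had negative log2 fold changes, and edgeR called 4 (Folr1, Otx2, Cldn2 and Car12), DESeq2 6 and limma-voom 11, with a median log2 fold change of −3.03 beside −0.02 over all tested genes. The summed CPM of this list ranged from 67.8 to 1446 in IUGR and from 5960 to 12709 in sham samples, and no marker was at 0. These sums cover all 19 listed genes, including Ttr and Prlr, which fell outside the count limits and were not tested. Ttr alone supplied 10851 CPM of the highest sham sum (S1-4) and 966 CPM of the highest IUGR sum (T1-3). In T1-4, which had the lowest sum, its part was 10.2 CPM. Without T1-3, edgeR called Aqp1 and not Car12. As a mean of log2 CPM, the list stood at 0.63 in T1-1, T1-3 had 3.72, T1-5 had 3.88 and T1-4 was lowest, whereas the sham samples had 5.28 to 5.95. *Wif1* was higher in T1-3 and T1-5 than in T1-1 and T1-4, as were this list and several others, among them those of cortical hem, meningeal, pericyte and endothelial markers, Wnt ligands and agonists. The order of *Dkk1* among IUGR samples, at 1 to 3 reads each, cannot be read at this depth. The list's part in the *Dkk1*, *Wif1* and *Dkk3* results was not tested.

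Markers of the cortical hem outside the Wnt and Dkk families had negative log2 fold changes in 10 of 10 tested. Of these, edgeR called 4 (Lmx1a, Rspo1, Rspo2 and Rspo3), DESeq2 5 and limma-voom 4, and the median was −1.62. Their mean log2 CPM was 1.71 to 3.89 in IUGR and 4.08 to 4.82 in sham samples, and 1 of its markers, Gdf7, was at 0 in a sample. The part of this list in the lower *Dkk1* and *Wif1* was not tested. By contrast, 0 of 12 radial glial markers were called by edgeR, DESeq2 or limma-voom, with 0 at an unadjusted p under 0.05 and a median of −0.08. General neuronal markers had positive log2 fold changes in 10 of 10 (median 0.62), with 6 at an unadjusted p under 0.05. None of them was called by edgeR, 2 were called by DESeq2 (Nefl and Syt1) and 1 by limma-voom (Syt1). The neuronal list's mean log2 CPM was 7.19 to 7.73 in IUGR and 6.70 to 7.11 in sham samples, and its part in the members' results was not tested.

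*Frzb* and *Dkk2* were highest in T1-3, which was also the highest of the 8 samples for markers of meningeal fibroblasts and mesenchyme, pericytes and smooth muscle (mean log2 CPM 4.62), endothelium (5.22), Cajal-Retzius cells (5.39), excitatory neurons (6.40), neurons in general (7.73) and erythroid cells (6.99). The meningeal list had a mean log2 CPM of 6.98 in T1-3, whereas the other IUGR samples had 3.00 to 5.36 and the sham samples 4.01 to 5.05. Its collagen gene Col1a2 was at 585 CPM in T1-3 and between 17.4 and 180 CPM elsewhere. *Frzb* was lowest in T1-4, as was this list. Over the groups, 14 of its 15 markers had a positive log2 fold change (median 1.12) and 1, Zic1, was called. The count and the median rested on T1-3, since without it 8 were positive and 7 negative (median 0.01). Zic1 stayed close to its value, at a log2 fold change of 0.93 against 1.19, which is under the fold criterion (adjusted p = 0.0341 in edgeR), and Ptgds was called lower. No marker of the list was at 0, and the part of these lists in the *Frzb* and *Dkk2* values was not tested.

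**Figure D4:**
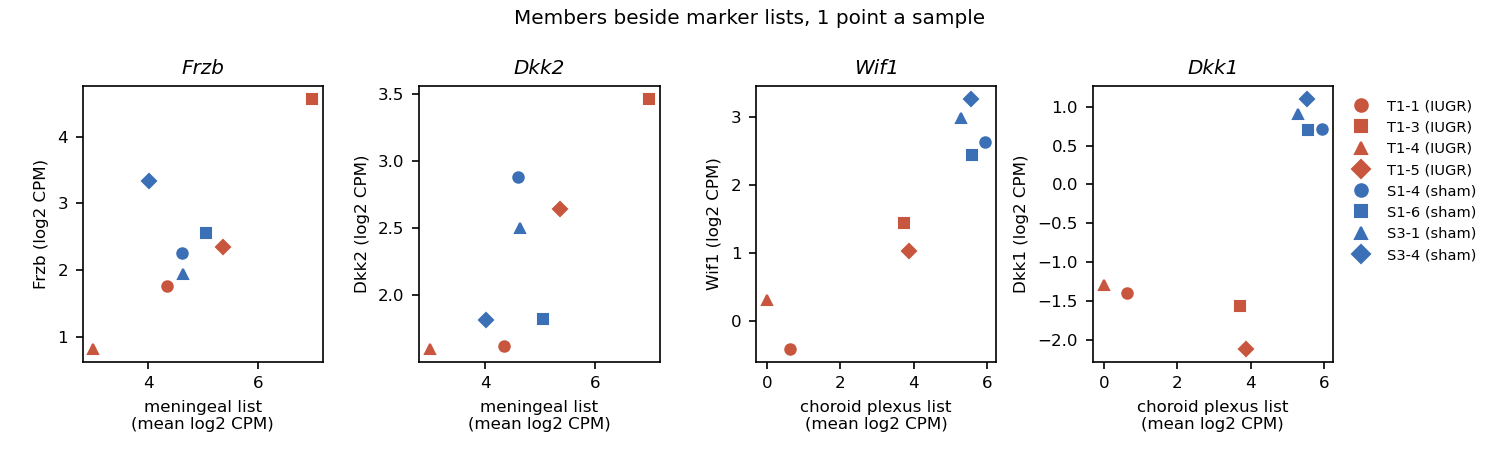
Log2 CPM (prior count 2) of 4 members against the mean log2 CPM of a marker list, 1 point a sample. T1-3 is highest on both axes in the meningeal panels of *Frzb* and *Dkk2*, and in the choroid plexus panels the sham samples are all to the right of and above the IUGR samples.

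The other secreted antagonists that could be tested were Sfrp4, Sostdc1, Notum, Draxin and Igfbp4, 5 genes of a list of 10. None was called by edgeR or DESeq2, 1 had an unadjusted p under 0.05 and limma-voom called that gene, Sostdc1. Sostdc1, a Wnt and Bmp antagonist also known as a choroid plexus marker, had levels of 0.97, 11.5, 0.51 and 14.8 CPM in T1-1, T1-3, T1-4 and T1-5 and 65.3, 53.3, 32.4 and 47.0 CPM in S1-4, S1-6, S3-1 and S3-4. The groups did not overlap, but the spread among IUGR samples was wide (log2 fold change −2.82 ± 0.78, with an adjusted p of 0.127 in edgeR). The log2 fold change was −0.46 for Sfrp4, 0.56 for Notum, −0.05 for Draxin and 0.51 for Igfbp4. Without T1-3 it was 0.24 for Notum, −0.13 for Draxin and 0.15 for Igfbp4.

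Of 18 tested receptors of the Wnt pathway, none was called by edgeR (2 at an unadjusted p under 0.05, beside 11.1% of all tested genes in either direction). DESeq2 and limma-voom each called 1, Fzd7. Without T1-3, edgeR called 2, Fzd7 and Fzd10. Fzd7, a Frizzled receptor, had a log2 fold change of −1.05 (adjusted p = 0.0723 from edgeR). The Dkk coreceptors Lrp6 and Lrp5 stood at −0.04 and −0.29, and Kremen1, a transmembrane partner of Dkk1, at −0.55 (adjusted p = 0.345 from edgeR). Among 16 tested membrane or intracellular inhibitors, 1 was called, Tpbg, which encodes a Wnt-inhibitory membrane glycoprotein (log2 fold change −1.03 ± 0.16, with an adjusted p of 0.0173 in edgeR). DESeq2 and limma-voom each called 2, Tpbg and the ubiquitin ligase gene Rnf43 (log2 fold change −1.37, adjusted p = 0.0571 in edgeR). Without T1-3, edgeR called Apcdd1 and Rnf43, and Tpbg was just under the fold criterion (−0.99, adjusted p = 0.0415 in edgeR).

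Some of the ligands that the antagonists oppose were lower. Of 13 tested Wnt ligands, 3 were called by edgeR, all lower, namely Wnt3a (log2 fold change −3.03), Wnt2b (−2.40) and Wnt8b (−1.61), and the median was −0.50. DESeq2 called 5 and limma-voom 4, all lower, and without T1-3 edgeR called Wnt9a and not Wnt8b. The 10 ligands without a call by edgeR included 3 with a positive log2 fold change, namely Wnt6 (1.74), Wnt4 (1.16) and Wnt7a (0.12). Without T1-3 these were 0.53, 0.25 and 0.27. The fall of *Dkk1* was thus close in size to that of Wnt3a, and *Wif1* to that of Wnt2b, without a test of these differences. Of 7 tested agonist genes, 3 were called, all lower (Rspo1 −1.96, Rspo2 −2.88 and Rspo3 −1.34), which encode R-spondins that strengthen Wnt signaling. Without T1-3, Rspo3 was not called. These 3 also belong to the hem list above.

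Genes of Wnt release and readouts of the pathway gave no call by edgeR, with 1 of 2 release genes at an unadjusted p under 0.05. Wls, which carries Wnt proteins to the cell surface, stood at −1.07 (adjusted p = 0.129 from edgeR) and Porcn, which attaches their lipid, at −0.10. DESeq2 called Wls and limma-voom neither gene. Of 15 tested readouts, 0 were called by edgeR, 4 had an unadjusted p under 0.05, DESeq2 called 1 (Sp5) and limma-voom 0. The readouts went both ways, with a negative log2 fold change in 9 and a positive one in 6 (10 and 5 without T1-3). Without T1-3, edgeR called Wls and Sp5. Sp5 had a log2 fold change of −1.26 (adjusted p = 0.142 from edgeR), and Axin2, a feedback inhibitor induced by the pathway, of −0.69 (adjusted p = 0.304 from edgeR). The median of the readouts was −0.42, beside 0.06 for *Sfrp1*, −2.20 for *Wif1* and −3.12 for *Dkk1*.

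**Figure D5:**
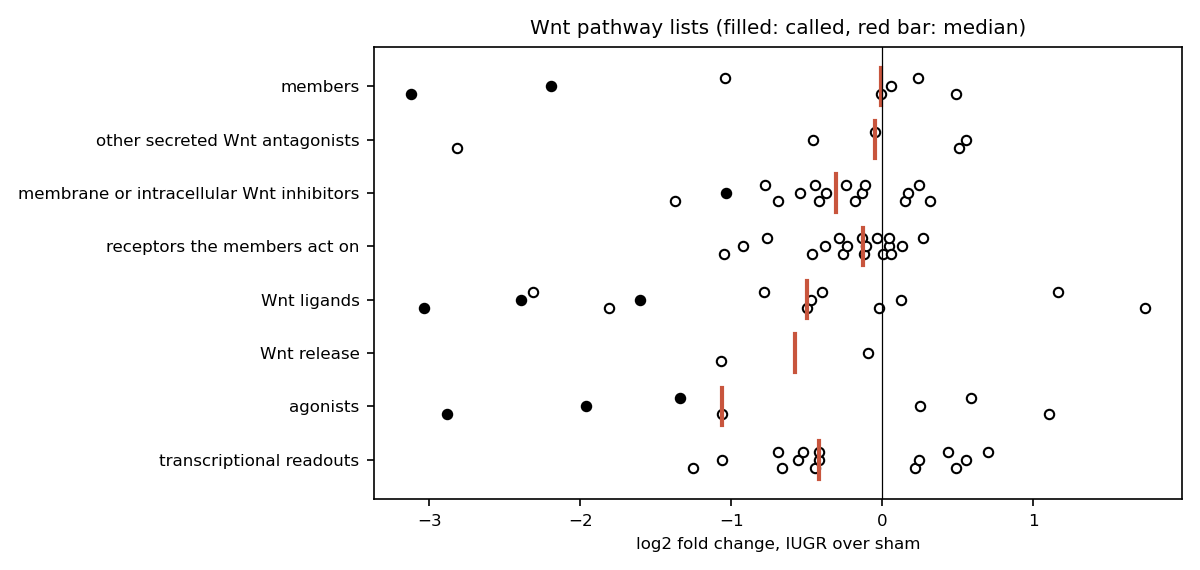
Log2 fold change (IUGR over sham) of each tested gene in the Wnt lists; filled points were called by edgeR and the red bar is the list's median. Called genes all lie to the left, among the members, the membrane inhibitors, the ligands and the agonists.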

How the data were processed

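Total RNA from hippocampi was sequenced as single reads from a strand-keeping kit, 1 library per sample. The authors aligned reads to mm10 (GRCm38), and the submitters' processing notes name Novoalign 2.8. The deposited values are raw counts per gene, without normalization; the counting program and its strand setting are not given in the sources used here. Identifiers were matched to GENCODE M21 (16124 of 16397), and 273 without a match were not tested. Protein-coding genes whose mean count reached 10 but not 50000 (13707 genes) were fitted by edgeR 4.0.16 under R 4.3.3 (TMM, quasi-likelihood test, group alone in the model) and Benjamini-Hochberg adjustment over all of them. Log2 CPM used a prior count of 2. No annotated gene of the table overlaps a member. Within-group pairs differed by a chi-square per degree of freedom of 21.0 to 60.7, so each sample counted as 1 replicate. Scripts were tested on simulated data. The named genes were the members, other tested secreted antagonists, called genes of each list (or that with the smallest p), a few leading markers and the 3 nearest genes of each member. Some genes that this rule names are not reported here. Other genes named in the lists (Lrp5, Lrp6, Kremen1, Axin2, Porcn, Gdf7, Wnt4, Wnt6, Wnt7a, Ptgds, those called without T1-3 and the genes called by DESeq2 or limma-voom) were chosen after their values were seen. Members and lists were chosen with earlier results of these data known. Alternatives were other scalings and count filters, all biotypes, 2 other thresholds, DESeq2 1.42.0, limma-voom (limma 3.58.1), an edgeR robust fit, each sample left out, and each sham prefix alone.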

Additional observations from a re-analysis of the deposited data

Results flagged for a closer look

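*Frzb* in T1-3 stood apart from the other IUGR samples. It was at 23.7 CPM there and between 1.601 and 4.94 CPM in the other 3, and its gap to the nearest sample was 0.849 of the group's range, above Dixon's 95% critical value for 4 samples. The rule was applied to CPM alone. As log2 CPM, *Frzb* was at 4.57 in T1-3 and at 0.81 to 2.35 in the other 3 IUGR samples. On that scale the gap takes up a smaller part of the range. Of 14 groups examined (7 members in 2 conditions), *Frzb* in IUGR was the 1 group flagged. Chance flags about 1 group in 20, so 1 flag among 14 groups is not beyond chance.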

How the results depend on the processing

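The number of members called lower was 2, and 1 at an adjusted p of at most 0.01, 0 with either sham prefix alone (edgeR, 3 members at an unadjusted p under 0.05 in each), 3 with DESeq2 or limma-voom, and 1 to 2 with a sample left out. It was 1 without T1-1, T1-4, S1-4, S1-6, S3-1 or S3-4, where *Wif1* was lost (adjusted p from 0.0504 to 0.0987 in edgeR). None was called higher under any alternative run. *Dkk1*, *Wif1* and *Dkk3* kept their lower direction throughout: with a sample left out the log2 fold change was −3.28 to −2.88, −2.55 to −1.90 and −1.13 to −0.81. The other members changed sign in places. *Sfrp2* was 0.0108 with DESeq2 size factors and with DESeq2's test, 0.0138 with upper-quartile scaling, 0.0259 without a count filter and 0.1428 with S3 alone, and *Frzb* was −0.0886 with limma-voom. With a sample left out the ranges were −0.2554 to 0.5111 for *Dkk2*, −0.0997 to 0.1604 for *Sfrp1*, −0.1556 to 0.1719 for *Sfrp2* and −0.8615 to 0.8492 for *Frzb*. The cause was not tested. The number of genes called among all tested genes ranged from 41 to 298 with a sample left out and was 425 with DESeq2, 328 with limma-voom and 23 at an adjusted p of at most 0.01. Of the 21 correlations between members, 7 changed sign without the 2 farthest samples. No paired analysis was possible because the labels give no pairing of IUGR with sham samples. Depth limits *Dkk1* most, at 1 to 3 reads per IUGR sample.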
